A study of Mus musculus with 12 samples.

Results

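The cohesin genes and Ctcf were followed in mouse embryonic stem (ES) cells labelled as knockouts of SUV420H2 or of both SUV420H1 and SUV420H2, in wild type cells, and in their differentiated derivatives. The set holds 10 genes of the 22878 gene symbols in the tables, taken by symbol from a list of the core ring (Smc1a, Smc3, Rad21), the STAG subunits (Stag1, Stag2), the loader (Nipbl, Mau2), the PDS5 regulators (Pds5a, Pds5b) and Ctcf, with the longest transcript model of each. The rule names genes and uses no measured value, but the list was drawn up with earlier results of these data known. All 10 had reads in every library and passed the filter on low values (an RPKM of 1 or more, reached by at least 2 of the libraries fitted).

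Cohesin is a ring of SMC1A, SMC3 and RAD21, closed around DNA and bound by either STAG1 or STAG2. It holds sister chromatids together after replication and, in interphase, extrudes chromatin loops that stop where CTCF is bound in the convergent orientation. NIPBL and MAU2 form the loader that drives loading and extrusion, and PDS5A and PDS5B bind the ring and act in both its release and its stabilisation. In ES cells cohesin and CTCF shape the domains in which pluripotency genes meet their enhancers. SUV420H1 and SUV420H2 are the methyltransferases that place the di- and trimethyl marks on lysine 20 of histone H4, the latter a mark of pericentric heterochromatin.

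The 12 polyA RNA libraries came from 3 genotypes, wild type (WT), SUV420H2 KO (KO here) and SUV420H1_H2 DKO (DKO here). Each genotype had 2 libraries of undifferentiated cells, grown on gelatin with a GSK3 inhibitor at 1.5 µM and passaged until feeder cells were lost. Each also had 1 library of cells differentiated for 8 days and 1 for 12 days. The labels do not say how differentiation was induced, how many clones stood for a genotype, or whether the 2 ES libraries were separate cultures. In comparisons among ES libraries, p-values therefore measure only the spread between these libraries, which may be technical. No genotype had a replicate at either day, so days 8 and 12 stood in for replicates of the differentiated state. Where differentiated libraries were compared, the spread also held day differences that varied with genotype, which cannot be told apart from spread between replicates. The 2 ES libraries of a genotype differed by more than counting noise (chi-square per degree of freedom 4.09 in WT, 17.2 in KO and 41.0 in DKO). WT libraries serve as the reference in both KO and DKO comparisons, which are therefore not independent.

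Reads in genes numbered 22542052 to 26677968 per library. Suv420h2 stood at 122.1 and 110.6 CPM (read counts scaled to library size) in WT ES cells, 19.2 and 17.4 in KO and 23.2 and 14.9 in DKO. Differentiated libraries gave 128.5 and 124.7 for WT, 26.5 and 40.3 for KO and 37.1 and 24.6 for DKO, so no mutant library overlapped WT. Suv420h1 was higher in DKO (60.5 and 70.0 CPM in ES cells, 59.9 and 83.8 when differentiated) than in WT (44.3 and 49.2, then 56.4 and 54.4). In ES cells that rise passed, at a log2 fold change of 0.49 against WT (SE 0.13, adjusted p = 0.0057) and 0.63 against KO (SE 0.13, adjusted p = 0.00097), though the label names SUV420H1 as knocked out. Its transcript model is over 5000 bases long. Tested genes of that length had a median of 0.35 against WT and 0.39 against KO. The part of length in the rise is not separated here. The sources used here do not state which exons were removed, so counts over the whole gene do not check that deletion, and DKO stands below for libraries so labelled. The summed level of 8 ES cell markers was 7063 to 10600 CPM in ES cells. After differentiation it was 313.1 to 763.1 in WT, 2211 to 5140 in KO and 3837 to 8424 in DKO, so the mutant libraries kept far more of it. The summed level of 7 fibroblast genes was 3.27 to 25.7 CPM in ES libraries, with none of the genes at 0 in all of them. After differentiation it was 2494 to 3820 in WT, 66.7 to 969.2 in KO and 6.61 to 16.03 in DKO. Most of the sum in WT and KO ES libraries was Thy1, at 14.2 to 23.2 CPM. Thy1 stood at 2.67 and 6.98 in differentiated WT, where 6 of the 7 genes were called higher. In bulk RNA, fewer cells of a type and less RNA per cell cannot be told apart.

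Levels are given as CPM, scaled by the trimmed mean of M-values (TMM), per kb of transcript model, so that genes can be compared. Rad21 and Ctcf led the set, with mean levels over the 12 libraries at percentiles 93.9 and 92.4 of 13433 tested genes, and Smc1a followed at 83.7. Smc3 and Mau2 both stood at 72.6, Pds5a at 67.2, Nipbl at 54.4 and Stag2 at 51.0, and Pds5b and Stag1 were lowest at 43.2 and 42.0. The ring subunits were thus not at equal RNA levels: in WT ES cells Rad21 averaged 95.3 CPM per kb, Smc1a 33.6 and Smc3 25.9. Neighbours in the WT ES order did not overlap between libraries except Smc3 with Pds5a and Pds5b with Stag1. In DKO ES cells Ctcf, at a mean of 98.96 CPM per kb, stood above Rad21 at 88.7, but their ranges overlapped.

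**Figure D1:**
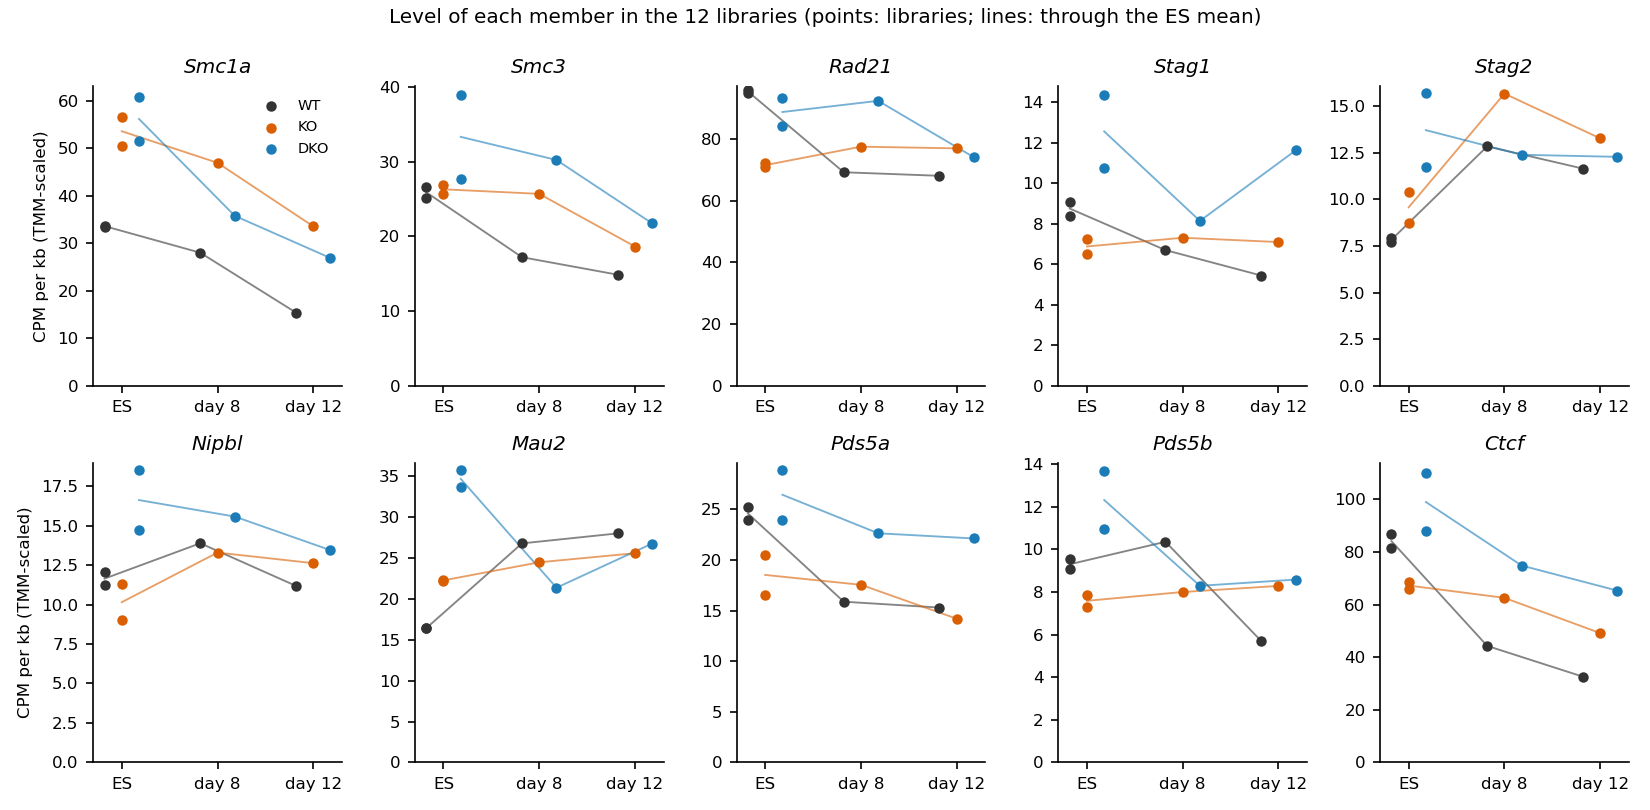
Level of each gene in the 12 libraries, on the vertical axis in TMM-scaled CPM per kb from 0, against ES, day 8 and day 12 (not to scale in time). Each point is 1 library (WT grey, KO orange, DKO blue), and lines join the ES mean to the differentiated libraries. Ctcf in WT goes from 81.5 and 86.7 to 44.3 and 32.6, while Mau2 in WT goes from 16.4 in both ES libraries to 26.8 and 28.0.

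In KO ES cells the X-linked ring gene Smc1a and the loader gene Mau2 were higher than in WT, and Rad21 and Pds5a were lower. These 4 of 10 genes passed edgeR's quasi-likelihood test at a Benjamini-Hochberg adjusted p under 0.05, 2 higher and 2 lower, with a median log2 fold change over the 10 of -0.24. The share of all tested genes that passed was 42.7%, 23.5% higher and 19.2% lower, with a median of -0.01, so 4 of 10 is close to the background. The number of calls was sensitive to single libraries, falling without either WT library or KO replicate 2 and rising without either DKO library. The share of all genes passing moved the same way in these fits.

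In DKO ES cells 7 of the 10 genes were higher than in WT and none was lower, led by Mau2 (2.12-fold), Stag2 (1.76-fold) and Smc1a (1.68-fold). Stag1, Nipbl, Pds5b and Smc3 rose by less, between 1.29- and 1.44-fold. Over all genes 63.8% passed, 32.2% higher and 31.6% lower, and the members' median log2 fold change was 0.47 against -0.01. Transcript length moved with this comparison. Tested genes with models over 5000 bases had a median of 0.35, those of 3500 to 5000 bases 0.17 and those under 2000 bases -0.31, and the 10 members run from 3605 to 8815 bases. With each library's trend on length removed, an alternative chosen after seeing the data, 3 of the 10 passed: Mau2 at 0.84 (adjusted p = 1.1e-05), Smc1a at 0.60 (adjusted p = 0.0003) and Stag2 at 0.52 (adjusted p = 0.0027). Over all genes 62.4% passed in that fit. Without either WT library fewer members passed, and the share of all genes passing was also lower.

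Between the mutants, 8 of 10 genes were higher in DKO than in KO and none lower, from Rad21 at 1.24-fold to Stag1 at 1.82-fold. Over all genes 67.3% passed, 33.2% higher and 34% lower. The same pattern with length was present, with a median log2 fold change of 0.39 over 5000 bases and -0.34 under 2000. With the trend removed 6 of the 10 members and 66.9% of all genes passed. Rad21 (adjusted p = 0.074) and Stag2 (0.19) did not. Without KO replicate 2 the count was lower, as was the share of all genes passing. All 10 members were also higher in DKO ES replicate 2 than in replicate 1, by a median of 0.32 on the log2 scale, while 1 of 10 was higher in KO replicate 2 and 3 of 10 in WT replicate 2. Genes over 5000 bases differed the same way between the DKO libraries, with a median of 0.17 against -0.11 under 2000 bases. What the length pattern contributes to the members' values was not tested beyond this alternative.

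**Figure D2:**
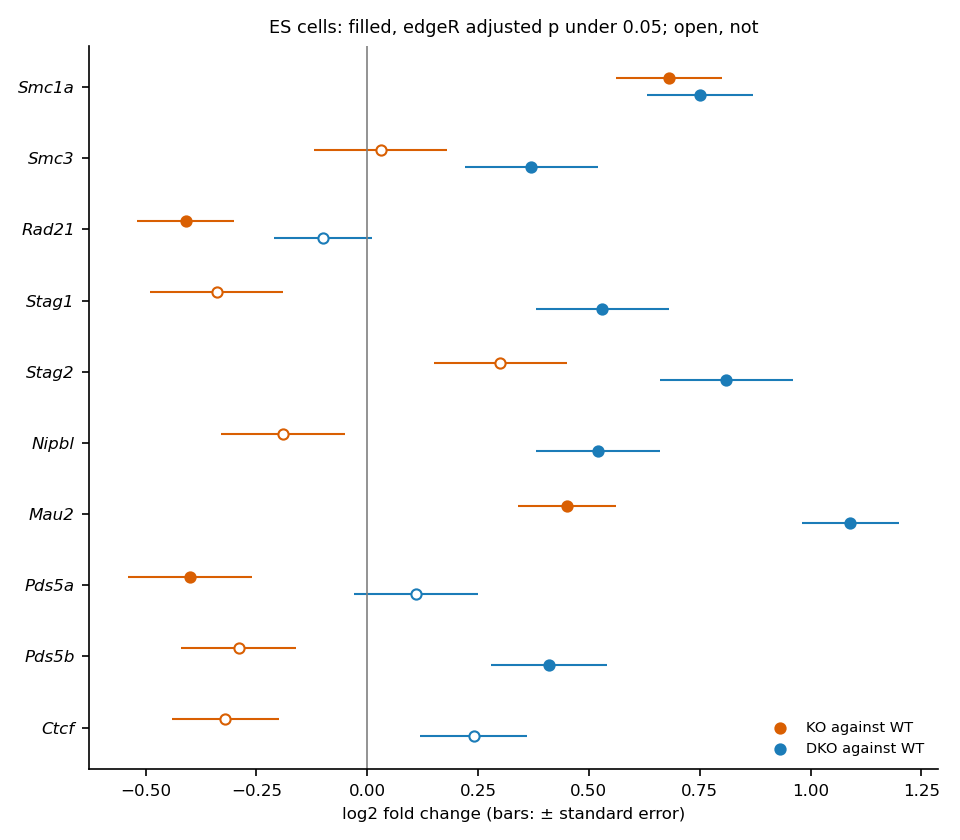
Log2 fold change (horizontal axis) of each gene in KO (orange) and DKO (blue) ES cells against WT, with its standard error as a bar; filled points passed an adjusted p of 0.05. Smc1a and Mau2 are filled to the right of 0 for both genotypes, while Rad21 and Pds5a are filled to the left for KO only.

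Differentiation lowered Ctcf, Smc1a, Smc3 and Pds5a when the 6 differentiated libraries were set against the 6 ES libraries with genotype in the model. These 4 of 10 passed and none was higher. Over all genes 35.8% passed, 20.1% higher and 15.7% lower. Levels of all 4 overlapped between states, and the count fell to 2 without either WT ES library, KO ES replicate 1, WT day 8, WT day 12 or KO day 12. In those fits 22.0% to 29.5% of all genes passed. A summed level of 8 proliferation genes moved with state: 2061 to 2278 CPM in ES libraries against 874.8 to 1558 in WT, 1608 to 2146 in KO and 1314 to 2134 in DKO differentiated libraries, and its part in the result was not tested.

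Within WT 7 of the 10 passed: Ctcf, Smc1a, Smc3, Pds5a and Rad21 fell, and Mau2 and Stag2 rose. There 61.1% of all genes passed, 31.2% higher and 29.8% lower, so 7 of 10 is close to the background. The share of all genes passing was also larger in WT than in either mutant. Length moved with state too: genes over 5000 bases had a median of 0.33 in WT and 0.23 in KO. Those under 2000 bases had -0.25 and -0.10. With the length trend removed the 5 falls in WT and the rise of Mau2 (0.48, adjusted p = 0.0062) passed. The rise of Stag2 did not (0.36, adjusted p = 0.054), and a fall of Stag1 did (-0.81, adjusted p = 0.0069). In that fit 60.9% of all genes passed in WT. In KO only Stag2 passed, rising 1.51-fold, with 29.3% of all genes passing, 15.8% higher and 13.5% lower. A fall of Smc1a in KO passed only in some alternatives, of which DESeq2 and the length correction are given below. In DKO Smc1a, Mau2 and Ctcf fell and none rose, with 19.6% of all genes passing, 10.4% higher and 9.22% lower. The single call in KO was lost without either KO ES library, either KO differentiated library or either WT ES library (0 calls each), and the count was 2 without DKO ES replicate 2, WT day 8, WT day 12 or DKO day 12. In DKO the count was 0 without DKO ES replicate 2 or DKO day 8, and 1 without either WT ES library. The background moved too: with a library left out the share of all genes passing ran from 7.56% (without KO ES replicate 2) to 42.6% in KO, and from 3.78% (without DKO ES replicate 2) to 34.4% in DKO.

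Whether a genotype changed differently from WT was tested as an interaction. For KO, Ctcf alone passed, with 16.3% of all genes passing, 9.09% positive and 7.24% negative. For DKO, Mau2, Stag2 and Ctcf passed, the first 2 negative and Ctcf positive, with 42% of all genes passing, 21.1% positive and 20.9% negative. The KO count was 0 without either WT or either KO ES library, 2 without WT day 8 or DKO day 12 and 3 without WT day 12 or DKO day 8, and the DKO count was 1 without either WT ES library or DKO day 12. The share of all genes passing ran from 2.92% (without WT ES replicate 2) to 29.3% for KO in such fits, and from 27.0% to 50.9% for DKO. Genes over 5000 bases had a median DKO interaction of -0.41 and those under 2000 bases 0.30. With the length trend removed, Mau2 (-0.97, adjusted p = 0.0024) and Ctcf (0.76, adjusted p = 0.013) passed and Stag2 (-0.44, adjusted p = 0.11) did not.

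**Figure D3:**
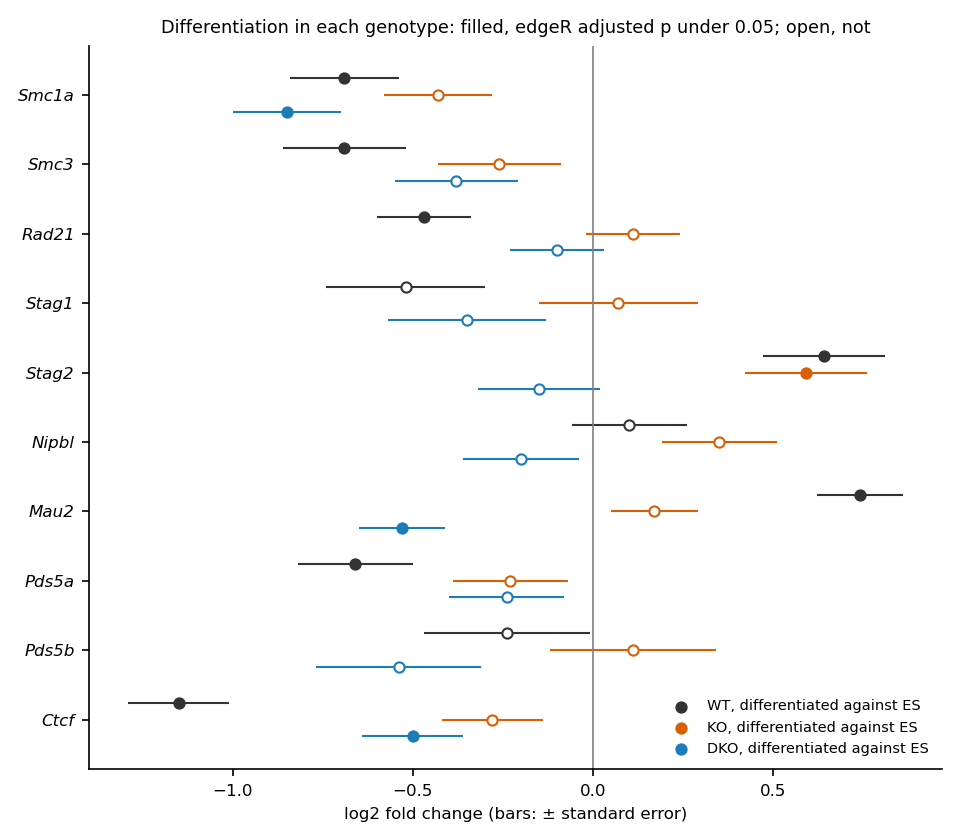
Log2 fold change (horizontal axis) of differentiated against ES cells within WT (grey), KO (orange) and DKO (blue), with standard errors as bars; filled points passed an adjusted p of 0.05. For Mau2 the WT point lies at 0.74 and the DKO point at -0.53, and for Ctcf the points lie at -1.15 in WT, -0.28 in KO and -0.50 in DKO.

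Among the differentiated libraries no member was called between genotypes or days by edgeR. The unadjusted p was under 0.05 for 2 of 10 genes in KO against WT, 5 in DKO against WT, 1 in DKO against KO and 1 between days. The shares of all tested genes under the same unadjusted value were 23.3%, 30.8%, 16.8% and 12.3%. The share of all genes called at the adjusted threshold was 0% for KO against WT, 2.19% for DKO against WT, 0.00775% for DKO against KO and 0% for day 12 against day 8. The 283 genes called for DKO against WT became 0 when any 1 of the KO or DKO differentiated libraries was left out, 181 without WT day 8 and 1804 without WT day 12. DESeq2 called Smc1a in KO against WT (log2 fold change 0.90, adjusted p = 0.015) and Ctcf in DKO against WT (0.88, adjusted p = 0.0039), and no member in the remaining 2 comparisons. No member was called by limma. By edgeR the median of 460 X-linked genes in KO against WT was 0.51 there. Smc1a, at 0.94, lay at the 69.8th percentile of these genes. With 2 residual degrees of freedom these comparisons have little room to detect a change.

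Smc1a encodes an ATPase arm of the ring and lies on the X chromosome. Its level was 33.7 and 33.5 CPM per kb in WT ES cells, 56.6 and 50.6 in KO and 51.5 and 60.8 in DKO. Both mutants lay above WT without overlap and overlapped each other. Overlap between genotypes or states, here and below, compares 2 libraries with 2, and no share of all genes is set beside it. The log2 fold change was 0.68 in KO (SE 0.12, adjusted p = 0.00069) and 0.75 in DKO (SE 0.12, adjusted p = 0.00017), and all 17 alternatives kept the call in each. At day 8 and day 12 it read 28.0 and 15.4 in WT, 46.9 and 33.6 in KO, and 35.8 and 26.9 in DKO, all below the ES libraries of their genotype. The fall was -0.69 in WT (SE 0.15, adjusted p = 0.0049), -0.43 in KO (SE 0.15, adjusted p = 0.063) and -0.85 in DKO (SE 0.15, adjusted p = 0.0092). In KO it passed by DESeq2 (-0.46, adjusted p = 0.025) and by edgeR with the length trend removed (-0.52, adjusted p = 0.025). Neither interaction passed (KO 0.25, adjusted p = 0.44; DKO -0.17, adjusted p = 0.56). The DKO call was lost without DKO ES replicate 2 or without DKO day 8, where the fold was -0.73 (adjusted p 0.057 to 0.059).

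The X chromosome as a whole moved in KO. Of 433 tested X-linked genes 338 were higher and 13 lower in KO than in WT ES cells, with a median log2 fold change of 0.91. Smc1a lay at the 34.4th percentile of that distribution, 0.23 below its median, and Stag2, the other X-linked member, at the 15th percentile, 0.61 below it. In DKO the X-linked median was -0.09, with 135 higher and 136 lower, and Smc1a (79.2nd percentile) and Stag2 (80.1st percentile) were both above most X-linked genes. The rise of Smc1a was thus smaller than the chromosome's median in KO and larger than it in DKO. Between DKO and KO ES cells the X-linked median was -0.93, with 41 higher and 299 lower. Smc1a (0.07) lay at the 82.9th percentile there and Stag2 (0.52) at the 91st. Scaling on autosomal genes alone kept the KO and DKO calls of Smc1a.

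**Figure D4:**
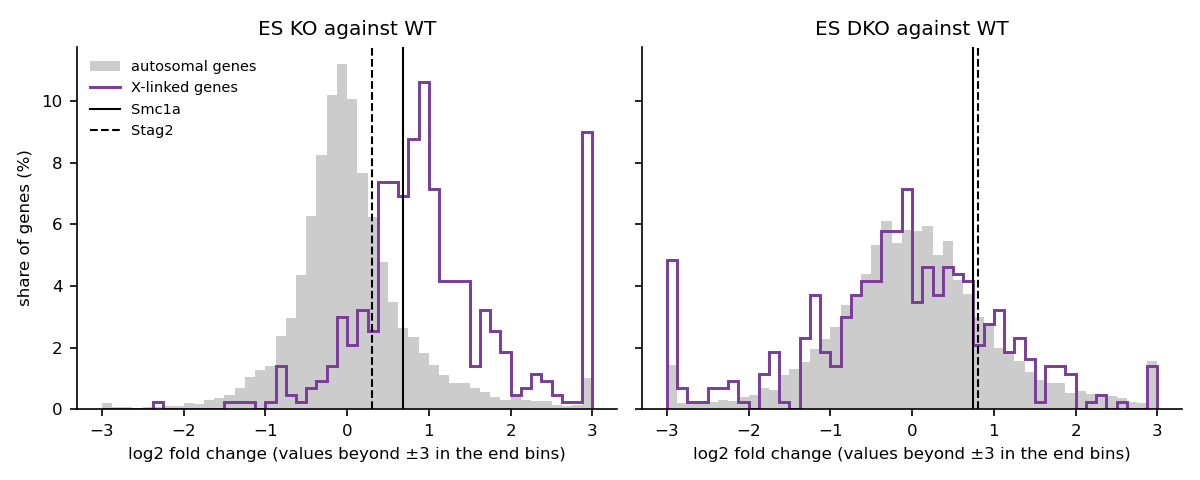
Share of genes (vertical axis, percent) by log2 fold change (horizontal axis) in KO and DKO ES cells against WT, for autosomal genes (grey bars) and X-linked genes (purple line), with Smc1a (solid line) and Stag2 (dashed line) marked. In KO the X-linked genes centre on 0.91 and both members lie below that, and in DKO they centre on -0.09 with both members above.

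Smc3, whose product pairs with SMC1A and carries the acetylation that locks cohesion, stood at 26.6 and 25.2 CPM per kb in WT ES cells, 25.7 and 26.9 in KO and 27.7 and 38.9 in DKO. KO and WT overlapped (log2 fold change 0.03, adjusted p = 0.89), and the rise in DKO (0.37, SE 0.15, adjusted p = 0.042) rested on replicate 2. Without that library it was 0.13 (adjusted p = 0.29), and the call was also lost without either WT or either KO library. Differentiated levels were 17.2 and 14.9 in WT, 25.7 and 18.6 in KO and 30.2 and 21.7 in DKO. The log2 fold change in WT was -0.69 (SE 0.17, adjusted p = 0.0079), a fall whose call was lost without WT day 8 (-0.53, adjusted p = 0.06). The values in KO (-0.26, adjusted p = 0.27) and DKO (-0.38, adjusted p = 0.15) did not pass, nor did either interaction. The fall over all genotypes (-0.43, SE 0.15, adjusted p = 0.041) was lost in 9 of 12 fits with a library left out, with adjusted p of 0.055 to 0.086, and kept without DKO ES replicate 1, KO day 8 or DKO day 8.

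Rad21 encodes the kleisin that bridges the SMC heads and is cut by separase at anaphase. It was the highest member in WT ES cells, at 95.7 and 94.9 CPM per kb, and stood at 72.1 and 70.8 in KO and 84.2 and 93.1 in DKO. The KO libraries lay below all other ES libraries, with a log2 fold change of -0.41 against WT (SE 0.11, adjusted p = 0.0085), while DKO was within -0.10 of WT (SE 0.11, adjusted p = 0.44). The KO call was lost without either WT library or KO replicate 2 (-0.42 to -0.37, adjusted p 0.064 to 0.1). Rad21 was higher in DKO than in KO (0.31, SE 0.11, adjusted p = 0.021), a call lost when any 1 of the WT or KO ES libraries was left out (adjusted p 0.073 to 0.11). At days 8 and 12 the genotypes read 69.2 and 68.0 (WT), 77.4 and 76.9 (KO), and 92.3 and 74.0 (DKO). The fall passed in WT (-0.47, SE 0.13, adjusted p = 0.012), lost without either WT ES library or WT day 8 (adjusted p 0.062 to 0.076). KO differentiated libraries were above KO ES libraries without overlap, but the change of 0.11 did not pass (adjusted p = 0.54), and the KO interaction of 0.59 missed the threshold (adjusted p = 0.06). DESeq2 called that interaction (0.53, adjusted p = 0.028).

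The STAG subunits are alternatives, 1 per ring, STAG1 being linked to CTCF sites and stable loops and STAG2 also to enhancer contacts. Stag1 read 9.10 and 8.40 CPM per kb in WT ES cells, 7.27 and 6.49 in KO and 10.8 and 14.4 in DKO. The 3 genotypes did not overlap, with KO lowest and DKO highest. Its log2 fold change was -0.34 in KO (SE 0.15, adjusted p = 0.089) and 0.53 in DKO (SE 0.15, adjusted p = 0.008), and it differed most of the members between DKO and KO (0.87, SE 0.15, adjusted p = 0.00025). The rise over WT was lost without WT replicate 2 (0.46, adjusted p = 0.073) and with the length trend removed (0.23, adjusted p = 0.12), while DKO against KO kept 0.54 (adjusted p = 0.002) with the trend removed. At days 8 and 12 Stag1 read 6.70 and 5.45 in WT, 7.31 and 7.10 in KO and 8.14 and 11.6 in DKO. The change in WT was -0.52 (SE 0.22, adjusted p = 0.068), not past the threshold, and -0.81 (SE 0.19, adjusted p = 0.0069) with the length trend removed.

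Stag2, X-linked like Smc1a, read 7.95 and 7.73 CPM per kb in WT ES cells, 10.4 and 8.74 in KO and 11.7 and 15.7 in DKO. The order was WT, KO, DKO without overlap. The value in KO was 0.30 (SE 0.15, adjusted p = 0.14) and the rise in DKO 0.81 (SE 0.15, adjusted p = 0.00053). Stag2 was also higher in DKO than in KO (0.52, SE 0.15, adjusted p = 0.0093), a call lost without KO replicate 2 (0.36, adjusted p = 0.13). Differentiated libraries lay closer together, at 12.8 and 11.7 in WT, 15.7 and 13.3 in KO and 12.4 and 12.3 in DKO. Stag2 rose in WT (0.64, SE 0.17, adjusted p = 0.011) and KO (0.59, SE 0.17, adjusted p = 0.033), and its change in DKO was -0.15 (SE 0.17, adjusted p = 0.56). The DKO interaction was -0.79 (SE 0.24, adjusted p = 0.029). The WT rise was lost without either WT ES library (adjusted p 0.076 to 0.089), the KO rise in 6 of 12 fits with a library left out (0.077 to 0.2), and the interaction in 6 of 12 (0.054 to 0.12). These were the fits without either WT ES library and, for the KO rise, without any KO library, and for the interaction without KO ES replicate 1, DKO ES replicate 2, DKO day 8 or DKO day 12. With the length trend removed the rises were 0.36 in WT (adjusted p = 0.054) and 0.38 in KO (adjusted p = 0.07).

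The ratio of Stag1 to Stag2, taken from the deposited RPKM, went from 1.14 and 1.09 in WT ES cells to 0.52 and 0.47 at days 8 and 12. In KO it was 0.70 and 0.74, then 0.47 and 0.53, and in DKO 0.92 and 0.92, then 0.66 and 0.95. WT and KO did not overlap between states and DKO did. The mean log2 difference within genotypes was -0.64, and an exact two-sided permutation test within genotypes gave p = 0.028, with 0.0093 the smallest p the design allows. Adjusted over the 3 ratios tested it was 0.083 and did not pass. By genotype the difference was -1.18 in WT, -0.53 in KO and -0.22 in DKO.

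**Figure D5:**
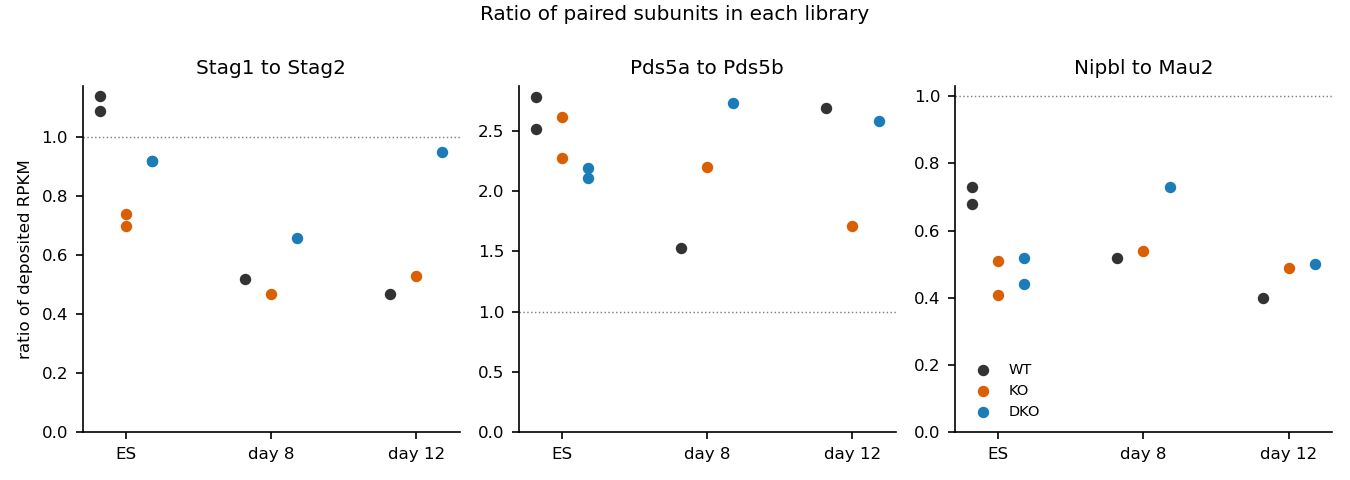
Ratio of deposited RPKM (vertical axis, from 0) in each library for Stag1 to Stag2, Pds5a to Pds5b and Nipbl to Mau2, by state and genotype; the dotted line marks a ratio of 1. The Stag1 to Stag2 ratio in WT falls from 1.14 and 1.09 to 0.52 and 0.47.

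Nipbl encodes the large loader subunit. It read 11.3 and 12.0 CPM per kb in WT ES cells, 11.3 and 9.02 in KO and 14.7 and 18.5 in DKO. KO overlapped WT (-0.19, SE 0.14, adjusted p = 0.32) and DKO lay above both, at 0.52 over WT (SE 0.14, adjusted p = 0.0073) and 0.71 over KO (SE 0.14, adjusted p = 0.00087). It is the longest member, at 8815 bases, and with the length trend removed the value against WT was 0.12 (adjusted p = 0.35) and against KO 0.26 (adjusted p = 0.046). The call against WT was also lost without WT replicate 1 (0.47, adjusted p = 0.058). Differentiated levels of 13.9 and 11.2 in WT, 13.3 and 12.6 in KO and 15.6 and 13.4 in DKO gave no call in any genotype.

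Mau2, which encodes the partner that stabilises NIPBL, showed the largest difference of any member between a mutant and WT. It stood at 16.4 and 16.4 CPM per kb in WT ES cells, 22.3 and 22.2 in KO and 33.6 and 35.7 in DKO. The genotypes formed 3 separate levels with little spread inside each. The log2 fold change was 0.45 in KO (SE 0.11, adjusted p = 0.0052), 1.09 in DKO (SE 0.11, adjusted p = 3.5e-06) and 0.64 in DKO over KO (SE 0.11, adjusted p = 0.00021). The KO call was lost without either WT library (0.44 to 0.45, adjusted p 0.083 to 0.089), and the calls in DKO held in all fits run. After differentiation the 3 genotypes lay closer together: 26.8 and 28.0 in WT, 24.5 and 25.6 in KO and 21.4 and 26.8 in DKO. Mau2 rose in WT (0.74, SE 0.12, adjusted p = 0.001), was 0.17 higher in KO (SE 0.12, adjusted p = 0.31) and fell in DKO (-0.53, SE 0.12, adjusted p = 0.019). The DKO interaction was -1.27 (SE 0.17, adjusted p = 0.00092), and that in KO -0.57 (SE 0.17, adjusted p = 0.053). DESeq2 called the KO interaction (-0.63, adjusted p = 0.0051). The fall in DKO was lost without either WT ES library, DKO ES replicate 2 or DKO day 8 (-0.54 to -0.41, adjusted p 0.056 to 0.11), while the DKO interaction and the WT rise held in all fits. The ratio of Nipbl to Mau2 was 0.41 to 0.73 in ES libraries and 0.40 to 0.73 in differentiated ones, a mean log2 difference of -0.03 (exact permutation p = 0.83, adjusted 0.83). The genotypes differed in sign, at -0.64 in WT, where states did not overlap (0.68 and 0.73, then 0.52 and 0.40), 0.19 in KO and 0.35 in DKO.

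Promoter sequence is shown for Mau2 and Smc1a, called in both mutants against WT in ES cells, and for Ctcf, called in both interactions. Each is the 150 bases before the annotated start, 5′ to 3′ on the gene's strand, with positions in GRCm38.p6, a later build than the mm9 used for the counts, at chr8:70042735-70042884 (minus strand), chrX:152016278-152016427 (plus) and chr8:105636388-105636537 (plus). Capitals mark the GC box GGGCGG (or CCGCCC when read on the opposite strand), bound by SP1-family factors, and the CCAAT box (or ATTGG on the opposite strand), bound by NF-Y.
Mau2: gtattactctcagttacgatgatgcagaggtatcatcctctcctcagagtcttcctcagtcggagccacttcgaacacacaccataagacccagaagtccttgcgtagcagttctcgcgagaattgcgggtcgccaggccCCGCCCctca
Smc1a: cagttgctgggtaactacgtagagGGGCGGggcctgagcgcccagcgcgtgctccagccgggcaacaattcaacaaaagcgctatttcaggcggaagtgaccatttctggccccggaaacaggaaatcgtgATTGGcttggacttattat
Ctcf: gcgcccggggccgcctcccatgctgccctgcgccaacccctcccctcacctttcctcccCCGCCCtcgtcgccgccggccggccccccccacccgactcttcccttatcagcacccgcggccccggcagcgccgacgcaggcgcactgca
The Ctcf window was the richest in G and C, at 78.0%, with 18 CG pairs, against 55.3% and 10 pairs for Smc1a and 54.7% and 9 pairs for Mau2. A GC box on either strand lay within 250 bases before the start in all 7 members with an entry, against 32.9% of 27025 mouse promoters. A CCAAT box was found in 3 of the 7 (Smc1a, Stag1 and Pds5b) against 34.5% of promoters. Matches to the NRF1 motif lay in Stag1 and Pds5b, against 3.86% of promoters, as did the YY1 motif AANATGGC, against 3.93%. The E2F forms TTTCCCGC (0.929% of promoters) and TTTGGCGC (0.437%) lay in Stag1 and Pds5a in turn. A match is a description of the letters, not a bound site, and these motifs were chosen after the sequences had been seen.

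Pds5a and Pds5b encode paralogous HEAT-repeat proteins that recruit WAPL or the acetylation machinery to the ring. Pds5a read 25.2 and 23.95 CPM per kb in WT ES cells, 20.5 and 16.6 in KO and 23.99 and 28.9 in DKO. KO was the lowest without overlap (-0.40 against WT, SE 0.14, adjusted p = 0.033), and DKO overlapped WT (0.11, adjusted p = 0.49) and was above KO (0.51, SE 0.14, adjusted p = 0.0055). The fall in KO was lost without either WT library or KO replicate 2 (-0.44 to -0.24, adjusted p 0.099 to 0.3), and DKO against KO without KO replicate 2 (0.34, adjusted p = 0.098). Differentiated levels were 15.9 and 15.3 in WT, 17.6 and 14.2 in KO and 22.6 and 22.1 in DKO. Pds5a fell in WT (-0.66, SE 0.16, adjusted p = 0.0071), and its changes in KO (-0.23, adjusted p = 0.3) and DKO (-0.24, adjusted p = 0.31) did not pass. The fall over all genotypes (-0.37, SE 0.12, adjusted p = 0.035) was lost in 7 of 12 fits with a library left out (adjusted p 0.052 to 0.078) and kept without KO ES replicate 2, DKO ES replicate 1, KO day 8, DKO day 8 or DKO day 12.

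Pds5b read 9.06 and 9.53 CPM per kb in WT ES cells, 7.85 and 7.31 in KO and 10.95 and 13.7 in DKO, with KO lowest and DKO highest without overlap. It rose in DKO over WT (0.41, SE 0.13, adjusted p = 0.016) and over KO (0.70, SE 0.13, adjusted p = 0.00051), and its value in KO against WT was -0.29 (SE 0.13, adjusted p = 0.1). The rise over WT was lost without either WT library or DKO replicate 2 (0.27 to 0.44, adjusted p 0.05 to 0.13), and was 0.06 (adjusted p = 0.64) with the length trend removed. WT day 8 and day 12 lay further apart, at 10.4 and 5.70, than KO (7.99 and 8.28) or DKO (8.28 and 8.58), and no change on differentiation passed. The ratio of Pds5a to Pds5b lay between 2.11 and 2.78 in ES cells and between 1.53 and 2.73 after differentiation, a mean log2 difference of -0.13 (exact permutation p = 0.49, adjusted 0.74). By genotype it was -0.38 in WT, -0.33 in KO and 0.30 in DKO.

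Ctcf, the zinc-finger protein that anchors loops, read 81.5 and 86.7 CPM per kb in WT ES cells, 68.5 and 66.0 in KO and 87.8 and 110.1 in DKO. KO lay lowest and DKO highest without overlap. Against WT neither passed, at -0.32 in KO (SE 0.12, adjusted p = 0.057) and 0.24 in DKO (SE 0.12, adjusted p = 0.1), while DKO against KO did (0.56, SE 0.12, adjusted p = 0.0016). The KO value passed by DESeq2 (-0.32, adjusted p = 0.042) and by edgeR with the length trend removed (-0.31, adjusted p = 0.037). With the trend removed the DKO value was 0.11 (adjusted p = 0.39). Differentiated levels were 44.3 and 32.6 in WT, 62.5 and 49.1 in KO and 74.8 and 65.3 in DKO, so every mutant library lay above both WT libraries. By edgeR neither difference from WT passed there. The values were 0.56 in KO (SE 0.18, adjusted p = 0.18) and 0.92 in DKO (SE 0.18, adjusted p = 0.066). Ctcf fell to 0.452 of its ES level in WT (-1.15, SE 0.14, adjusted p = 0.0003) and fell in DKO (-0.50, SE 0.14, adjusted p = 0.042), and in KO the value was -0.28 (SE 0.14, adjusted p = 0.17). The WT fall exceeded that in both mutants, with interactions of 0.87 in KO (SE 0.20, adjusted p = 0.025) and 0.64 in DKO (SE 0.20, adjusted p = 0.032). The summed ES cell markers moved with this order, being lowest in the WT differentiated libraries, and their part in it was not tested.

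The WT fall of Ctcf held in all fits run. Its fall in DKO was lost in 7 of 12 fits with a library left out (without either WT or KO ES library, DKO ES replicate 2 or either DKO differentiated library; adjusted p 0.077 to 0.22). The KO interaction was lost in 5 of 12 (either WT or KO ES library, or KO day 8; values 0.80 to 0.91, adjusted p 0.062 to 0.12). The DKO interaction was lost in 6 of 12 (either WT ES library, KO ES replicate 2, DKO ES replicate 1, WT day 12 or DKO day 12; values 0.49 to 0.73, adjusted p 0.054 to 0.11). All of these values kept their sign.

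The members correlated to different degrees over the 12 libraries, which share genotypes, states and the length pattern. Of the 45 pairs the median Pearson correlation of log2 CPM was 0.54, the highest was 0.93 for Ctcf with Smc3 and the lowest -0.31 for Mau2 with Rad21, and 6 pairs were below 0. No median over pairs of all genes is set beside these. By likeness to Ctcf, Smc3 ranked 137th among tested genes and Stag1 (0.79) 1153rd. No member was among the 3 genes most like another member. The genes most like each member over the same libraries, among 13433, were Elovl6 for Smc1a (r = 0.965), Fam35a for Smc3 (0.971), Cwf19l2 for Rad21 (0.933), Sfmbt1 for Stag1 (0.968) and Kdm5a for Stag2 (0.929). For Nipbl it was Wwp1 (0.967), for Mau2 Clic4 (0.978), for Pds5a Klhl12 (0.984), for Pds5b Baz1b (0.968) and for Ctcf Zfp940 (0.983). Clic4 followed the 3 levels of Mau2 in ES cells, at 48.6 and 48.0 CPM per kb in WT, 74.6 and 69.8 in KO and 141.8 and 157.0 in DKO.

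Other genes of the cohesin cycle and of chromosome structure were read from a list of 36, of which 34 were tested. In ES cells 6 were higher and 11 lower in KO than in WT, 10 higher and 6 lower in DKO than in WT, and 14 higher and 8 lower in DKO than in KO. The shares of all genes passing in these comparisons were 42.7%, 63.8% and 67.3% and the list's counts of 17, 16 and 22 of 34 were near or below them. In KO the 3 genes lower among release and acetylation factors were Wapal, the release factor (43.2 against 66.8 CPM per kb on average, log2 fold change -0.62, adjusted p = 0.0039), Esco2, the S-phase acetyltransferase of SMC3 (-0.54, adjusted p = 0.0092), and Cdca5, which encodes sororin, the guard of acetylated rings (-0.36, adjusted p = 0.03). In DKO Wapal was instead higher than in WT (91.1 CPM per kb, 0.45, adjusted p = 0.014) and Esco2 lower (-0.50, adjusted p = 0.0087).

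Genes of the list that changed most in ES cells included the meiotic ring subunit Smc1b, at 0.07 and 0.05 CPM per kb in WT, 4.90 and 4.86 in KO and 0.14 and 0.17 in DKO. Its libraries labelled KO thus stood alone, by 6.30 on the log2 scale over WT (SE 0.32). Among ES libraries only those of KO took Smc1b, and likewise Stag3, past the filter on low values. Their tests in KO were thus admitted by the group found high, and their p-values are not used as support. The WT level of Smc1b was also near the floor. The meiotic genes Stag3 (1.16) and Rec8 (-1.21) moved in opposite directions in KO. Pttg1, which encodes securin, the inhibitor of separase, read 12.4 and 13.0 in WT, 4.64 and 5.07 in KO and 1.25 and 0.77 in DKO, a fall of -1.38 in KO (adjusted p = 0.0002) and -3.65 in DKO (adjusted p = 1.4e-07). In DKO the repair gene Brca2 fell (-1.39). Of the 4 genes for cohesion at the fork, Ddx11 (-1.10) and Chtf18 (-1.05) fell, Chtf8 rose (0.25, adjusted p = 0.049) and Dscc1 did not pass (-0.41, adjusted p = 0.12), and the condensin ATPase Smc4 rose (1.16, adjusted p = 1.4e-05). Chtf18 was higher in KO (0.81) and lower in DKO than in WT.

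On differentiation 2 of the 34 were higher and 8 lower over all genotypes, 3 and 20 in WT, 0 and 5 in KO and 0 and 8 in DKO. The shares of all genes passing were 35.8%, 61.1%, 29.3% and 19.6%, with 29.8% lower in WT. In WT all 4 genes for cohesion at the fork and 6 of 8 condensin genes fell. Esco2 read 39.0 and 36.7 CPM per kb in WT ES cells and 8.82 and 7.12 at days 8 and 12, against 27.2 and 24.7 then 21.3 and 10.4 in KO, and 22.8 and 30.5 then 23.8 and 15.7 in DKO. Brca2 in WT went from 13.6 and 12.3 to 3.84 and 1.97, and Espl1, the separase gene, from 53.4 and 54.6 to 19.7 and 13.4. The interaction with differentiation was positive for 9 and negative for 1 of the 34 in KO and likewise 9 and 1 in DKO, where 16.3% and 42% of all genes passed, 9.09% and 21.1% positive. The proliferation and ES cell marker sums given above moved with the same contrast, and their part in it was not tested.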

How the data were processed

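Polyadenylated RNA was sequenced from NEBNext Ultra II libraries, per the labels' protocols. Reads were aligned with Bowtie2 to mm9, per the submitters' processing notes. The counting tool and its handling of strand and of reads with several matches were not given in the sources used here. Reads of overlapping or antisense genes cannot be told apart. The tables deposited by the authors hold whole-number counts and RPKM for 29257 transcript models, and the longest model stood for each symbol. Stag2, Nipbl and Mau2 have 2 models each.

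Counts were tested with edgeR 4.0.16 (quasi-likelihood F test, TMM scaling) over genes reaching 1 RPKM in 2 or more libraries, with Benjamini-Hochberg adjustment over all genes tested and a threshold of 0.05. ES fits used the 6 ES libraries (3 residual degrees of freedom), differentiated fits genotype and day (2), the pooled state fit genotype (8), and fits within genotypes and interactions a term for each genotype in each state, plus day (5). A standard error is the log2 fold change over the square root of F. Alternatives were DESeq2 1.42.0, limma 3.58.1 on log2(RPKM + 1) or log2(RPKM + 0.1), other scalings, filters and models, left-out libraries, and a length correction added after seeing the data. In simulated tables where 100 genes were altered 2-fold and 100 4-fold, DKO against WT in ES cells recovered 98% of 2-fold changes, the pooled comparison of states 39% of 2-fold and 92% of 4-fold, that within WT 24% and 85%, and DKO against WT among differentiated libraries 1% and 57%. In the same order 16, 3, 4 and 8 unaltered genes were called. Far more genes passed in the data (63.8%, 35.8%, 61.1% and 2.19%), except in the last comparison. The adjusted threshold is stricter where few genes change, so these shares do not give the recovery in the data. R 4.3.3 and Python 3.11.15 were used.

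All 10 members are named in every comparison, and of the 36 related genes mainly those called with an absolute log2 fold change of at least 1, up to 4 a comparison. Wapal, Cdca5, Esco2 in ES cells, Ddx11, Chtf8, Dscc1 and Chtf18 against WT were added after their values were seen. Likeness is the highest Pearson correlation of log2 CPM (prior count 2). The members and lists were chosen with earlier results of these data known. RefSeq promoters were matched by symbol for 7 of 10 members.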

Additional observations from a re-analysis of the deposited data

Results flagged for a closer look

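The change on differentiation differed between genotypes for 3 members by edgeR's interaction test. Mau2 rose in WT and fell in DKO, an interaction of -1.27 (adjusted p = 0.00092). Stag2 rose in WT and had no called change in DKO, an interaction of -0.79 (adjusted p = 0.029). Ctcf fell more in WT than in either mutant, with interactions of 0.87 in KO (adjusted p = 0.025) and 0.64 in DKO (adjusted p = 0.032). Over all genes 16.3% passed the KO interaction and 42% the DKO interaction, so 1 and 3 of 10 members are no more than the background. With a library left out, the Mau2 call held in all 12 fits, while the Stag2 call was lost in 6 of 12 (adjusted p 0.054 to 0.12), that of Ctcf in KO in 5 (0.062 to 0.12) and that of Ctcf in DKO in 6 (0.054 to 0.11). The KO and DKO interactions share the WT libraries. Their causes were not tested.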

How the results depend on the processing

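Of 38 called member results, none reversed over 722 values from alternatives, 612 kept the call and 110 lost it; 65 of 1644 values of uncalled results changed sign. In fits with a library left out, the number of members called ran from 1 to 8 for KO against WT in ES cells (4 with all libraries), 4 to 8 for DKO against WT (7) and 5 to 9 for DKO against KO (8). It ran from 2 to 5 for differentiated against ES (4), 0 to 2 within KO (1), 0 to 4 within DKO (3), 0 to 3 for the KO interaction (1) and 1 to 3 for the DKO interaction (3). The lone library of a group was then assumed to vary like the others. Fitting only the 2 genotypes compared gave 8 for KO against WT in ES cells (53.8% of all genes passing), and removing the length trend gave 3 for DKO against WT (62.4%). DESeq2 gave 1 for KO against WT and 1 for DKO against WT in differentiated cells, 2 within KO and 3 for the KO interaction. Within KO, TMM over autosomal genes and the model with the most reads each gave 2, and within DKO limma gave 1 at either pseudocount. For the KO interaction, DESeq2-type size factors in edgeR, a filter at 5 RPKM and limma at either pseudocount each gave 2. The log2 difference in the Stag1 to Stag2 ratio ran from -0.73 to -0.55 with a library left out, adjusted p 0.028 to 0.17. The cause of these differences was not tested beyond the fewer samples or genes in a fit. Over all genes, the filter at 5 RPKM called 3265 of 7887 genes against 5138 for KO against WT in ES cells, and DESeq2 called 1834 genes for KO against WT, 3140 for DKO against WT and 1176 for DKO against KO in differentiated cells and 563 between days, against 0, 283, 1 and 0 by edgeR, and 3307 against 2193 for the KO interaction. limma at pseudocounts 1 and 0.1 called 136 and 161 genes for KO against WT and 714 and 911 for DKO against WT among differentiated cells. Of the calls for DKO against WT there, 196 were higher and 87 lower by edgeR, against 1309 and 1831 by DESeq2. With a library left out, the number of genes called ran from 3201 to 6366 for KO against WT and 2947 to 6121 for differentiated against ES, 1008 to 5662 within KO, 506 to 4543 within DKO, 391 to 3890 for the KO interaction, 3611 to 6765 for the DKO interaction, and 0 to 1804 for DKO against WT and 0 to 237 for DKO against KO among differentiated cells.

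Replicate numbers in the ES labels are shared between genotypes, but deviations of same-numbered libraries correlated at -0.04 for each pair of genotypes, so the numbers were not taken as a pairing. With a replicate block, 3 members were called for KO against WT, 6 for DKO against WT and 8 for DKO against KO. Pds5a in KO (adjusted p = 0.05) and Smc3 in DKO (adjusted p = 0.055) were the calls lost.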
